A study of Homo sapiens with 6 samples.

Results

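A set of 10 genes of the oxygen-sensing pathway were described in SH-SY5Y, a neuroblastoma cell line of human origin. The set was fixed by name, as genes of 1 pathway. It holds the HIF subunits HIF1A, EPAS1 and ARNT, the degradation factor VHL, the prolyl hydroxylases EGLN1, EGLN2 and EGLN3, and the targets VEGFA, BNIP3 and CA9. All 10 of 10 were found among 60709 genes with values. Of the set, 9 reached 10 counts in each library and CA9 had none.

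The study measured messenger RNA of cells given a fumarate joined to a peptide of the transcription factor NRF2, and of control cells. The labels list 3 samples of each group. Wells of both groups held 2 mL of medium and got 10 uL of DMSO, the solvent, and all were lysed at 5 h; peptide wells also got 200 uL of peptide solution in water. The headings of 3 columns of the count table are the numbers 4, 5 and 6 that the labels give to the control samples, and only these were used. No column carries a number of a peptide sample, so the peptide samples were not analysed here and no effect of the peptide is given. The name control rests on the headings, and a table numbered afresh would give other identities. The oxygen level of the culture is not given in the sources used here. The labels do not say whether the replicates came from separate cultures, so the spread between them may be technical.

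HIF is a transcription factor made of an alpha subunit, encoded by HIF1A or EPAS1, and the beta subunit encoded by ARNT. When oxygen is present, the EGLN enzymes hydroxylate prolines of the alpha subunit, and the VHL protein then binds it and marks it for degradation. The enzymes need iron and oxoglutarate, and fumarate that builds up in cells without fumarate hydratase can inhibit them. When oxygen is scarce, the alpha subunit accumulates with little change of its own messenger RNA, so transcript levels of subunits do not measure HIF activity. VEGFA drives vessel growth, BNIP3 acts in mitophagy and cell death, and CA9 is a carbonic anhydrase at the cell surface that is a widely used marker of HIF activity.

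HIF activates genes through a short DNA core, which was searched as ACGTG and GCGTG on both strands. The windows were RefSeq promoters of GRCh38.p14, each from 250 bases before to 50 bases after a gene's start. Of 35116 such windows, 48.4% held either core. The tables used held windows for 8 of the 10 genes, and 6 of these 8 had a core in at least 1 window. VHL and VEGFA had no window. HIF1A and EGLN2 had 2 windows each, so the member count is by gene and the 48.4% is by window. A share by gene over all genes was not computed. The windows of 4 members that HIF is known to induce are printed here because their transcript counts differed. They ranged from 0 counts for CA9 to 732, 760 and 540 for BNIP3 in replicates 1, 2 and 3. Capitals mark the cores on either strand.

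BNIP3 (chr10:131981874-131982173, minus strand): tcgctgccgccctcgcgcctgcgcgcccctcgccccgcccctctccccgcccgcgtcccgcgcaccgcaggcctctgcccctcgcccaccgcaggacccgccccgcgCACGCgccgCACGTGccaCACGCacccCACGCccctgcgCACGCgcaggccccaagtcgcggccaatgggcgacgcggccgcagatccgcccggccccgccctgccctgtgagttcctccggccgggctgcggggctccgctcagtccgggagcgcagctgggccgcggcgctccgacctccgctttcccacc
EGLN1 (chr1:231422238-231422537, minus strand): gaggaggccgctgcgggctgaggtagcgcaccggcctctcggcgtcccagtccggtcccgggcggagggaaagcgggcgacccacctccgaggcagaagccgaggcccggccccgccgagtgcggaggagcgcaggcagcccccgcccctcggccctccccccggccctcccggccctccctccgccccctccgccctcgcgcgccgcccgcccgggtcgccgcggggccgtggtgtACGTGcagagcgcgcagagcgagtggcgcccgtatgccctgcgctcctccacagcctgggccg
EGLN3 (chr14:33951025-33951324, minus strand): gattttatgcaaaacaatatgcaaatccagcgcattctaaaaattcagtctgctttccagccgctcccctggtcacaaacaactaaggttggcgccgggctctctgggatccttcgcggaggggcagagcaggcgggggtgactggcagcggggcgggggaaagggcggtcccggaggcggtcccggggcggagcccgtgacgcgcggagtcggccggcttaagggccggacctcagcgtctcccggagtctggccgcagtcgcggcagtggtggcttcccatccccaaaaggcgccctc
CA9 (chr9:35673678-35673977, plus strand): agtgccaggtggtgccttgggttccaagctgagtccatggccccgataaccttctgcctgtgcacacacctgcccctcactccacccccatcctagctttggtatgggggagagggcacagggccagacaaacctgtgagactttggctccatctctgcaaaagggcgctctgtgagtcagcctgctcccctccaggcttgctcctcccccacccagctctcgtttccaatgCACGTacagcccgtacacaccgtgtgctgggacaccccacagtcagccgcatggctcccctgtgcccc

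The BNIP3 window held 6 matches, of which 2 were ACGTG and 4 were GCGTG; the ACGTG pair overlaps on opposite strands. At least 6 matches were found in 0.923% of all windows. The EGLN1 window had 1 match, 13 bases before the start, and the CA9 window had 1, 18 bases before it. The EGLN3 window had 0. The gene with 0 counts and BNIP3, with 540 to 760 counts, thus each had a core, and a match is a description and not a site of binding.

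Levels are given in CPM, the counts of a gene for each 1000000 counts in the library after scaling. Totals ranged from 8887854 to 11397407 counts, and mitochondrially encoded genes took 6.25% of replicate 3 against 4.11% and 3.83% of replicates 1 and 2. Of the 14 markers of the sympathetic neuroblast, 13 had at least 10 counts in every library, and TH, the enzyme of the first step of catecholamine synthesis, had 0. Of 22 markers of other cells, 7 had at least 10 counts in every library. The summed level of all 22 was 338 to 378 CPM, mostly from the fibroblast marker COL3A1. Of the 5 fibroblast markers 4 were detected, COL3A1 at 316 CPM, LUM at 14.6, COL1A1 at 14.4 and DCN at 5.21, while COL1A2 had at most 3 counts in any library. The part of such cells in the levels below was not tested, and fewer cells of a type and less RNA per cell cannot be told apart in bulk samples.

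The alpha subunit HIF1A (ENSG00000100644.17, chromosome 14, 61695513 to 61748258) was the most abundant member. It was measured at 174, 191 and 233 CPM in replicates 1, 2 and 3, from 1866, 2184 and 2062 counts. Replicate 3 was the highest, and the mean was 199 ± 30.1 CPM (SD, n = 3). The coefficient of variation was 15.1%, where counting alone gives 2.22%.

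EPAS1 (ENSG00000116016.14, chromosome 2, 46297407 to 46386697), the other alpha subunit, was measured at 43.9, 43.2 and 41.2 CPM. The 3 values lay close together, with a mean of 42.8 ± 1.42 CPM (SD, n = 3). Its coefficient of variation, 3.31%, was below the 4.75% that counting alone gives. It was the only member of which this was true.

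ARNT (ENSG00000143437.21, chromosome 1, 150809713 to 150876599), the partner of both alpha subunits, was measured at 129, 137 and 143 CPM, with a mean of 136 ± 7.12 CPM (SD, n = 3). Like HIF1A, it was highest in replicate 3.

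VHL (ENSG00000134086.8, chromosome 3, 10141778 to 10153667), the substrate receptor of the ubiquitin ligase, was measured at 99.4, 98.3 and 86.4 CPM, with a mean of 94.7 ± 7.21 CPM (SD, n = 3). Replicate 3 was the lowest of the 3 libraries.

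The 3 prolyl hydroxylases had the lowest CPM of the detected members. EGLN1 (ENSG00000135766.9, chromosome 1, 231363756 to 231422287), held to be the main oxygen sensor of most cells, was measured at 39.2, 29.6 and 28.0 CPM, a mean of 32.3 ± 6.05 CPM (SD, n = 3). Replicate 1 stood above the other libraries. EGLN3 (ENSG00000129521.15, chromosome 14, 33924227 to 33951074), which is itself a HIF target, was measured at 13.9, 17.2 and 17.7 CPM, a mean of 16.3 ± 2.05 CPM. Replicate 1 was the lowest library for EGLN3 and the highest for EGLN1.

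EGLN2 (ENSG00000269858.6, chromosome 19, 40799191 to 40808434) was measured at 11.3, 11.1 and 8.70 CPM, from 121, 127 and 77 counts, a mean of 10.4 ± 1.46 CPM (SD, n = 3). Of the 2821 bases of its longest coding transcript in GENCODE 29, 71.3% also belong to the read-through gene RAB4B-EGLN2 or to AC008537.1 on the same strand. RAB4B-EGLN2 was listed at 0 counts in every library. How the counting treated reads in shared exons is not given in the sources used here, so the EGLN2 value may be an undercount and its place among the members is uncertain.

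Among the targets, VEGFA (ENSG00000112715.25, chromosome 6, 43770211 to 43786487) was measured at 98.1, 94.4 and 84.5 CPM, with a mean of 92.3 ± 7.05 CPM (SD, n = 3). BNIP3 (ENSG00000176171.11, chromosome 10, 131967684 to 131981923) was measured at 68.4, 66.5 and 61.0 CPM, with a mean of 65.3 ± 3.88 CPM. Both were lowest in replicate 3. The table also lists 44 BNIP3 pseudogenes, which together had 29, 24 and 22 counts against 732, 760 and 540 for BNIP3.

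CA9 (ENSG00000107159.13, chromosome 9, 35673928 to 35681159) had 0 counts in each of the 3 libraries. The limit that a count of 0 allows, 3 counts, is 0.281, 0.263 and 0.339 CPM in replicates 1, 2 and 3, for counting error only. On the other strand, 39.7% of its longest coding transcript is shared with ARHGEF39, which had 99, 141 and 93 counts. If reads in the shared bases went uncounted, the limits are 0.466, 0.436 and 0.562 CPM. Within these limits CA9 was not detectable at this depth.

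Levels of different genes were compared as CPM per kilobase of the longest transcript in GENCODE 29. On this scale HIF1A was at 50.4 ± 7.60 (SD, n = 3), ARNT at 27.9 ± 1.46 and VHL at 25.3 ± 1.93. BNIP3 followed at 21.3 ± 1.26, then EPAS1 at 8.28 ± 0.274 and VEGFA at 7.59 ± 0.579. The hydroxylases closed the order, with EGLN3 at 5.71 ± 0.718, EGLN1 at 4.54 ± 0.852 and EGLN2 at 2.66 ± 0.374.

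The ranges of the 3 libraries did not overlap for 5 of the 8 neighbouring pairs in this order. They overlapped for ARNT and VHL, for EPAS1 and VEGFA, and for EGLN3 and EGLN1, which did not differ beyond their spread. Within a library, ARNT was above VHL and EGLN3 above EGLN1 in 2 of 3, and EPAS1 was above VEGFA in 3 of 3. An exact paired permutation test over 3 libraries cannot give a two-sided p below 0.25, so the order is described without a test.

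Transcript length decided the place of VEGFA. Its longest transcript, 12167 bases, retains an intron, and its longest coding transcript has 3535 bases. With the coding length, VEGFA was at 26.1 ± 1.99 CPM per kilobase (SD, n = 3), between ARNT and VHL and overlapping both. By library, ARNT was above VEGFA in 2 of 3 and VEGFA above VHL in 3 of 3. EGLN2 was then at 3.68 ± 0.517 and its range overlapped that of EGLN1, which was the higher of this pair in 3 of 3 libraries. The other 7 detected members had the same longest transcript on both scales. The place of EPAS1 depended on length too: with the median transcript length it was at 64.7 ± 2.14, above VHL at 35.1 ± 2.67 and BNIP3 at 33.3 ± 1.98. HIF1A was first with the longest, the longest coding and the median transcript and with all exons merged, and the 3 hydroxylases held the last 3 places. This may not hold for EGLN2 if its shared exons went uncounted. Its longest coding transcript has 809 bases that no other gene shares on its strand. Scaled by these, EGLN2 was at 12.8 ± 1.80, above EPAS1 and the other hydroxylases. This takes every read to come from those 809 bases, whereas 4565 of its 6577 merged exon bases are unshared on its strand.

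**Figure D1:**
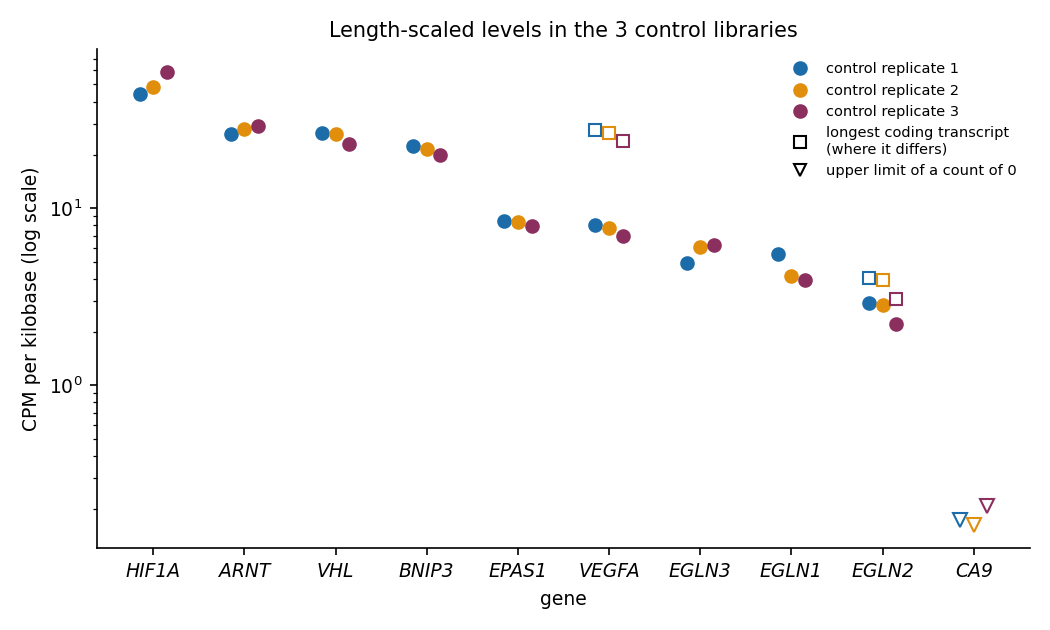
CPM per kilobase (log axis) of each member in the 3 control libraries, with 1 point per library. Open squares show VEGFA and EGLN2 scaled by the longest coding transcript, and open triangles the limit that a count of 0 sets for CA9; HIF1A lies above every other member in each library.

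Over the 13863 genes that reached 10 counts in each library and have a known length, the median was 8.37 CPM per kilobase. HIF1A exceeded 91.9% of them, ARNT 82.8%, VHL 80.7% and BNIP3 76.5%. EPAS1 was near the middle, above 49.7%, and VEGFA was above 47.4% on the scale of its longest transcript. EGLN3 exceeded 39.9%, EGLN1 34.6% and EGLN2 23.6%. The median of the 9 detected members was 8.28 CPM per kilobase with the longest transcript and 21.3 with the longest coding transcript of each member. The median of all genes was not computed with the coding length, so the 21.3 cannot be set against 8.37.

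**Figure D2:**
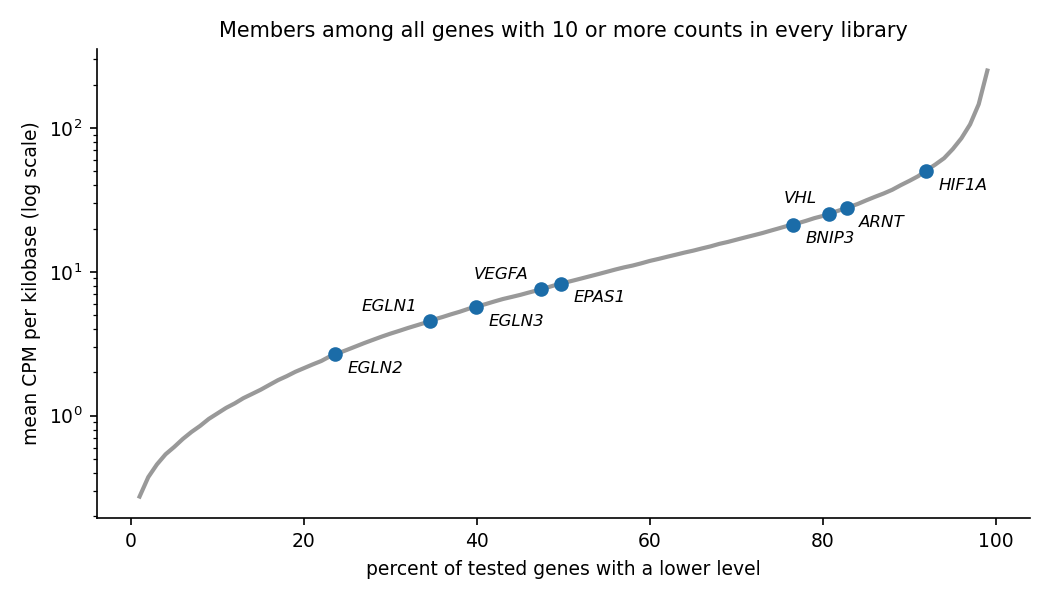
Mean CPM per kilobase (log axis) against the percent of tested genes with a lower level. The grey line is all 13863 genes and the points are the 9 detected members, from EGLN2 at 23.6% to HIF1A at 91.9%.

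Within a library, the ratio of EPAS1 to HIF1A per kilobase was 0.193, 0.173 and 0.136, in the order of the replicates, with a mean of 0.167 ± 0.0291 (SD, n = 3). The alpha subunit transcripts were thus mostly HIF1A in each library. ARNT stood to HIF1A as 0.598, 0.579 and 0.497, a mean of 0.558 ± 0.0534. HIF1A and EPAS1 together exceeded ARNT by a factor of 2.10 ± 0.158, and of 1.68 with the median transcript length. ARNT2, a relative of ARNT described below, was not part of this ratio.

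Of the summed hydroxylase level per kilobase, EGLN3 took 36.7, 46.2 and 50.2%, a mean of 44.4 ± 6.91% (SD, n = 3). EGLN1 took 41.5, 32.0 and 31.8%, a mean of 35.1 ± 5.53%, and EGLN2 took 20.6 ± 2.22%. EGLN1 had the largest share in replicate 1 and EGLN3 in replicates 2 and 3. The shares depended on length: with all exons merged, EGLN1 took 53.7% and EGLN3 27.2%. With the unshared bases of the longest coding transcripts, EGLN2 took 55.4%, if all reads came from those bases. The 3 hydroxylases together stood to HIF1A plus EPAS1 as 0.223 ± 0.0343. This ratio was 0.145 with the median transcript length, 0.188 with all exons merged and 0.387 with the unshared bases. VHL stood to HIF1A as 0.603, 0.544 and 0.393, a mean of 0.513 ± 0.109, and 0.137 with the median transcript length.

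Whether the libraries differed beyond counting error was tested for each gene with a chi-square test of its counts against the scaled library sizes. Of 13920 genes tested, 3790 had an adjusted p under 0.05, which is 27.2%. Among the members 4 of 9 passed, namely HIF1A, VHL, EGLN1 and VEGFA. At a minimum of 50 counts, 34.4% of all genes passed, since counting error is smaller in abundant genes. The median coefficient of variation was 7.63% over the 9 members and 8.69% over all genes tested. The test compares libraries of 1 group and not conditions.

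HIF1A had the smallest adjusted p of the members, 1.65e-17 by the chi-square test over all genes. Its log2 deviations from the mean of the 3 libraries were -0.18, -0.05 and 0.23. EGLN1 followed with an adjusted p of 0.00011 and deviations of 0.30, -0.11 and -0.19. VHL had an adjusted p of 0.0251 and VEGFA one of 0.0268, both with replicate 3 lowest. ARNT, at an adjusted p of 0.0827, BNIP3, EGLN2, EGLN3 and EPAS1 did not pass. EPAS1 had the largest adjusted p, 0.77. With RLE size factors ARNT also passed, as it did without replicate 2.

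The libraries differ along the GC content of the transcripts, and the members followed this unequally. HIF1A had the lowest GC of the members, 36.4%, against a median of 48.4% over all genes tested. With the GC trend of each library removed, 1159 genes passed, which is 8.33%, and 1 member, EGLN1, with an adjusted p of 3.15e-05. HIF1A then had an adjusted p of 0.175, and its values were 193, 192 and 207 CPM. Its coefficient of variation went from 15.1% to 4.22%, that of VEGFA from 7.63% to 2.81%, and that of EPAS1 from 3.31% to 0.503%. The values of VEGFA and EPAS1 then lay below the 3.23% and 4.75% that counting alone gives. The same held for BNIP3, at 2.96% against 3.84%, and for EGLN2, at 8.73% against 9.61%. Values below counting error do not measure precision. The coefficient of variation stayed about as large for VHL, at 7.61% and 7.10%. VHL no longer passed the chi-square test, with an adjusted p of 0.0998. The coefficient was higher with the trend removed for ARNT, 5.47% against 5.23%, for EGLN3, 14.1% against 12.6%, and for EGLN1, 21.0% against 18.8%.

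The ratio of EPAS1 to HIF1A was 0.169, 0.171 and 0.158 with the trend removed, so that its SD went from 0.0291 to 0.00684. VHL to HIF1A remained lowest in replicate 3, at 0.544, 0.540 and 0.445. EGLN1 at 40.1, 29.6 and 27.4 CPM kept its high value in replicate 1. Without replicate 3 it was the one member that passed, where 3.01% of all genes did. Without replicate 1 the members that passed were HIF1A and VHL, where 16.4% of all genes did.

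**Figure D3:**
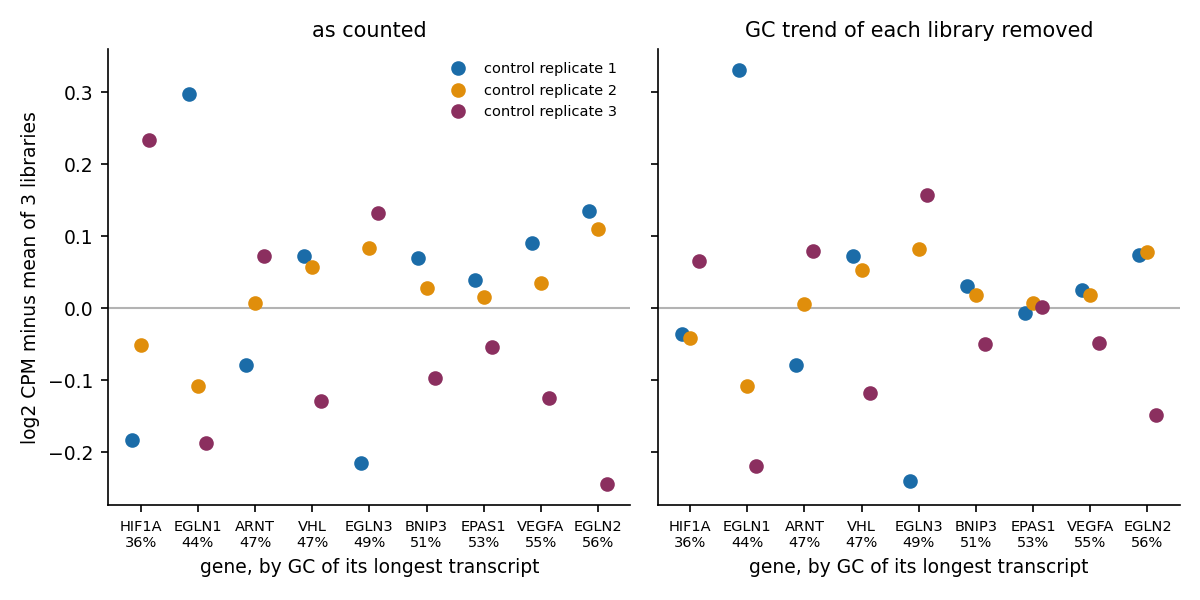
Log2 CPM of each detected member minus its mean over the 3 control libraries, as counted (left) and with the GC trend of each library removed (right). Genes are ordered by GC content; HIF1A in replicate 3 lies at 0.23 on the left and 0.07 on the right, while EGLN1 in replicate 1 lies at 0.30 and 0.33.

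The other genes of the pathway were described from a list of 87 genes in 7 groups, by mean CPM per kilobase. Of these, 72 had at least 10 counts in every library and 3 had 0 counts in each. Exons shared with other genes were not examined for the markers or for this list, apart from ALDOA. Low or 0 counts among them may thus be undercounts. Of the 72, 32 passed the chi-square test between libraries, beside 27.2% of all genes with 10 counts and 34.4% of those with 50. With the GC trend removed, 8.33% of all genes passed, and the number for the list is not given. The median over the list was 10.9 CPM per kilobase, against 8.37 over all genes with 10 counts, a comparison that sets a list with silent genes beside detected ones only.

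Among the 7 other subunits and relatives, 4 had at least 10 counts in every library. ARNT2, a neuronal relative of ARNT, was the highest at 22.9 ± 1.95 CPM per kilobase (SD, n = 3), next to 27.9 ± 1.46 for ARNT. SIM1 had 0 counts. HIF3A, the remaining alpha subunit gene, had 15, 30 and 27 counts; it was added to the named genes after its values were seen.

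Of the 14 other oxygen-sensing and degradation genes, 13 had at least 10 counts in every library. The chaperone HSP90AB1, which binds the alpha subunit, was the highest at 945 ± 13.2 CPM per kilobase (SD, n = 3). The lowest was P4HTM, a transmembrane prolyl hydroxylase, with 1, 3 and 1 counts. HIF1AN, the asparaginyl hydroxylase that blocks co-activator binding, was at 12.6 ± 0.480, above each of the EGLN genes with the longest transcripts. Other lengths were not run for it, and EGLN2 scaled by its unshared bases was at 12.8 ± 1.80. HIF1AN too was added after its values were seen. Among 7 co-activators and antagonists, 6 had at least 10 counts, from PKM, the pyruvate kinase, at 400.5 ± 15.7 to CITED2, a competitor for co-activator binding, with 8, 6 and 4 counts.

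Of 20 glucose and lactate genes, 19 had at least 10 counts in every library. The highest was GAPDH at 805 ± 43.1 CPM per kilobase (SD, n = 3), and the lowest was the glucose transporter SLC2A3 with 3, 3 and 0 counts. Of 14 genes for angiogenic and other secreted or surface proteins, 9 had at least 10 counts. IGFBP3, a binding protein of insulin-like growth factors, was the highest at 52.3 ± 8.32, and VEGFC had 0 counts.

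Of 14 genes for mitochondria, survival and stress, 12 had at least 10 counts in every library. HILPDA, a lipid droplet protein, was the highest at 21.9 ± 3.77 CPM per kilobase (SD, n = 3), close to BNIP3 at 21.3 ± 1.26 with the longest transcripts. That of HILPDA, 1370 bases, is not annotated as coding, and other lengths were not run for this list. COX4I2, the hypoxic isoform of a cytochrome oxidase subunit, was the lowest with 1, 2 and 0 counts. Of 11 matrix and chromatin genes, 9 had at least 10 counts. The lysyl hydroxylase PLOD1 was the highest at 43.5 ± 2.46, while its relative PLOD2, a HIF target, had 0 counts in each library.

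**Figure D4:**
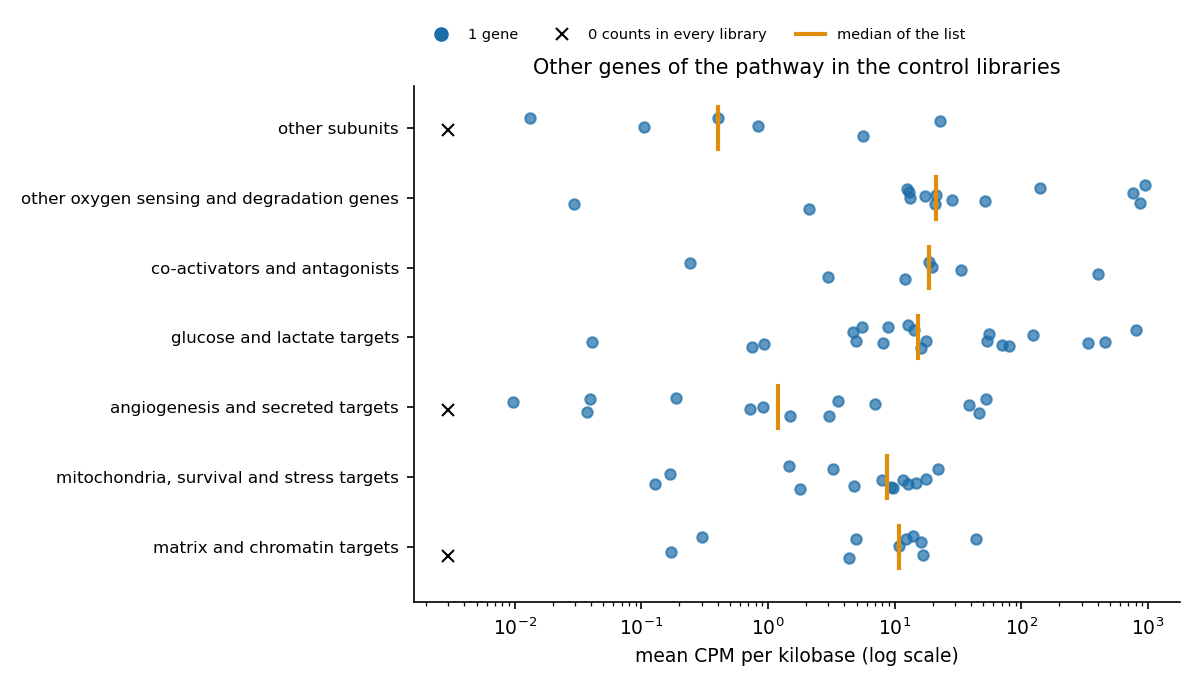
Mean CPM per kilobase (log axis) over the 3 control libraries of 87 other pathway genes in 7 lists, with 1 point per gene and a bar at each list's median. Crosses at the left edge are SIM1, VEGFC and PLOD2, with 0 counts in every library.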

How the data were processed

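Messenger RNA libraries were stranded, per the labels' protocols. Gene counts were used as deposited, whole numbers that the authors had not normalized. The submitters' processing notes name fastp 0.21.1, STAR 2.7.7a, featureCounts and GRCh38; strand setting, shared reads and annotation are not given in the sources used here. 3 columns that match no sample were not used. 1 entry without values left 60709 of 60710 genes, and 2 lines named no gene.

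CPM were scaled by TMM (edgeR 4.0.16, R 4.3.3). Lengths and GC are those of GENCODE 29 transcripts, which may differ from the authors' annotation. The GC trend was the median deviation in 50 bins over 10290 nuclear genes whose mean count was 100 or more. P-values of the chi-square test (2 degrees of freedom) were adjusted by Benjamini-Hochberg over all genes that reached 10 counts in each library; the test and the trend were tested on simulated data. The tests ran in scipy 1.17.1 under Python 3.11.15. The planned edgeR test of peptide against control was not run. Promoters and gene coordinates are RefSeq's for GRCh38.p14. All members are named; of the other genes, the highest and lowest of each list and those at 0 are. Members and lists were chosen with earlier results of these data known. Alternatives were other size factors, count minimums, lengths, removal of mitochondrial genes or of the GC trend, and each library left out in turn.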

Additional observations from a re-analysis of the deposited data

How the results depend on the processing

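No paired analysis was possible because only the control group had columns. The alternatives of the peptide comparison were not run for the same reason. The median over the 10 members, 54.1 CPM, was 56.7 CPM once mitochondrial genes were dropped, and 1 single level, that of EPAS1, moved by more than its SD, to 44.9 CPM; a smaller total raises every gene. Means over 2 of the 3 libraries stay within 1 SD by construction, so they say nothing about stability.

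Ratios between genes depended on length. With the median transcript length, EPAS1 to HIF1A was 0.251 and ARNT to HIF1A 0.746, and the hydroxylase shares were 17.3% for EGLN1, 30.1% for EGLN2 and 52.6% for EGLN3. VHL to HIF1A was then 0.137 and BNIP3 to VEGFA 0.397. Merging all exons, chosen after seeing the data, gave 53.7% for EGLN1 and 27.2% for EGLN3, and the longest coding transcript, also chosen later, gave 26.3% for EGLN2. The unshared bases of the longest coding transcripts, added last, gave 19.6% for EGLN1, 55.4% for EGLN2 and 25.0% for EGLN3. BNIP3 to VEGFA went from 2.81 to 0.816 with the coding length, which reverses their order.

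Neighbouring pairs without overlap numbered 5 of 8 with all libraries and 5 to 8 with 1 left out; fewer libraries make overlap rarer. Genes that differed among libraries numbered 3790, 1159 with the GC trend removed, and 432 to 3993 with 1 library left out, the lowest without replicate 3. For members the numbers were 4, 1, and 1 to 5. The longest transcripts of VEGFA and EGLN2 retain introns, so their GC values may not be those of the mature transcript. Depth limits EGLN2 most, at 77 to 127 counts.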

Other observations

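ALDOA, the muscle-type aldolase and a HIF target, had 140, 140 and 91 counts, or 11.9 ± 1.45 CPM (SD, n = 3), next to 1509 ± 80.9 CPM for GAPDH and 591 ± 27.8 CPM for TPI1 of the same pathway. In GENCODE 29, 88.4% of the 1672 bases of its longest coding transcript also belong to AC093512.2 on the same strand. The gene was chosen after its values were seen, and the part of shared exons in its level was not tested. EGLN2 has the same feature among the members.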
